A study of Mus musculus with 26 samples.

Results

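Mospd3 and 4 related genes of the VAP family were followed in brown adipose tissue of mice. The members Mospd3, Mospd1, Mospd2, Vapa and Vapb were chosen by their symbols, with the transcript of highest summed count kept for each symbol, and 3 of the 5 are listed among the 9378 genes of the deposited counts. Mospd3 itself was selected on its measured values, because it was high in the IMP2 immunoprecipitates of both genotypes and low in the IgG immunoprecipitate. Its values in those libraries are therefore given as a description without a test.

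The series holds 26 samples, of which the 12 from brown fat enter here and the 14 from liver were not used. The brown fat came from male mice aged 10 weeks on normal chow that spent a night at 4 °C before tissue was taken. All were littermates on a C57Bl/6J background bred from Imp2 +/- parents, and they were either Imp2 -/- (knockout, KO) or wild type (WT). The groups are IMP2-antibody immunoprecipitates (IP) from WT (3 libraries, numbered 21, 22 and 25) and from KO (2 libraries, 23 and 24), an immunoprecipitate with nonspecific IgG from WT (1 library, 26), and total RNA from KO (2 libraries, 18 and 19) and from WT (4 libraries, 15, 16, 17 and 20). The labels give no further detail of the Imp2 allele and do not say whether libraries came from separate animals, so that p-values measure only the spread between these libraries. The counts stand in separate tables for different libraries. The knockout table lists 1189 genes for libraries 16 to 19 and 21 to 24, and the IgG table lists 9378 genes for libraries 15, 20, 25 and 26.

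VAP proteins sit in the membrane of the endoplasmic reticulum (ER) and carry a major sperm protein (MSP) domain that faces the cytosol. Through this domain VAPA and VAPB bind short FFAT motifs in proteins of other organelles, and in this way hold the ER close to mitochondria, endosomes, the Golgi and the plasma membrane and help lipids pass between them. MOSPD2 also binds FFAT motifs and has a lipid-binding CRAL-TRIO domain. In human cells MOSPD1 and MOSPD3 prefer a related motif called FFNT, and human VAPB is mutated in an inherited motor neuron disease. IMP2, the product of Igf2bp2, is an RNA-binding protein that affects the stability and translation of its mRNAs. An RNA immunoprecipitate holds the RNA recovered with the antibody, and the KO tissue and the nonspecific IgG are each a control for RNA recovered without IMP2.

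In GRCm38.p6 Mospd3 lies on chromosome 5 from 137596645 to 137601079, and no other annotated gene overlaps it. Vapa lies on chromosome 17 from 65580053 to 65616462, and Vapb on chromosome 2 from 173737571 to 173784336, where the annotation also places the predicted gene Gm18917. Mospd1 on chromosome X (53344594 to 53370658) and Mospd2 on chromosome X (164936169 to 164980505) are listed in neither table, so no value can be given for them. Mospd3 is the single member listed in both tables, while Vapa and Vapb are listed in the IgG table alone. No other gene has the counts of a member in every library, and a further Mospd3 transcript, listed without a symbol, stays within 2 reads of the named one in every library.

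Summed counts over genes ranged between 780333 and 4916158 per library in the knockout table and between 1321756 and 3750103 in the IgG table. Levels are CPM, counts scaled to a common library total with TMM factors (trimmed mean of M-values). No transcript length was used, so levels were not compared between genes. Libraries of one group varied beyond counting error (chi-square over degrees of freedom 13.7 to 98.6). Markers of brown fat were abundant in every library, with 7 of 11 listed in the knockout table at a summed 38495 to 49329 CPM and 11 of 11 in the IgG table at 22365 to 28221 CPM. Igf2bp2, the deleted gene, is not listed in the knockout table, so the genotype labels could not be checked with it. In the IgG table it had 8 counts in the IMP2 IP, 16 in the IgG IP, and 20 and 16 in total RNA.

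Mospd3 was high in every IMP2 IP, of intermediate level in total RNA and low with IgG. On a common scale of CPM over the 1189 genes listed in both tables, Mospd3 stood at 177, 235 and 294 CPM in WT IP libraries 21, 22 and 25, and at 213 and 196 CPM in KO IP libraries 23 and 24. Library 26 with IgG had 36.5 CPM, with a counting interval of 28.7 to 45.8 CPM at 95%. Total RNA had 74.8 and 84.7 CPM in KO libraries 18 and 19, and 69.4, 84.7, 110 and 66.0 CPM in WT libraries 15, 16, 17 and 20. All 5 IMP2 IP libraries lay above all 6 total RNA libraries, and the IgG library lay below all of them.

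The order of the Mospd3 levels on this scale was WT IP (235 ± 58.3 CPM, SD, n = 3), KO IP (204 ± 11.9 CPM, SD, n = 2), WT total RNA (82.6 ± 20.2 CPM, SD, n = 4), KO total RNA (79.7 ± 7.06 CPM, SD, n = 2) and IgG (36.5 CPM, 1 library). The neighbours WT IP and KO IP overlapped, as did WT and KO total RNA. The WT groups join libraries of both tables and the KO groups come from the knockout table alone. The WT means and SDs therefore include any shift between tables. Within the knockout table, on its own scale, the means were 210 CPM in WT IP and 205 CPM in KO IP. No IMP2 IP library overlapped a total RNA library, and the counting interval of the IgG library ended below the lowest total RNA value of 66.0 CPM. Mospd3 was selected for such values, so these separations are a description. The interval of the IgG library covers counting error only.

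**Figure D1:**
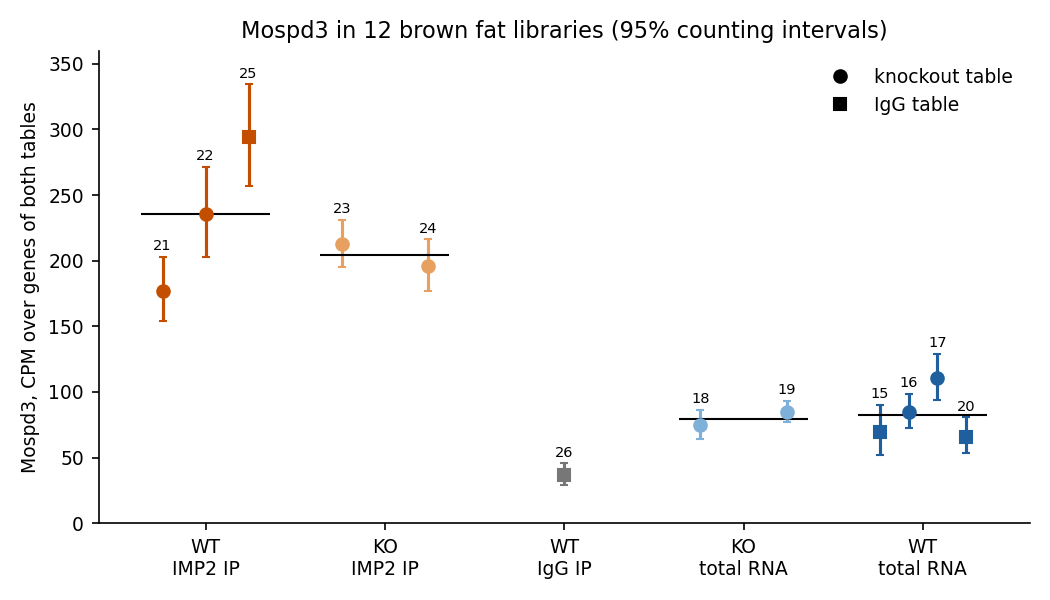
Mospd3 in CPM over the genes of both tables (y axis) in the 12 brown fat libraries, grouped on the x axis by RNA type and genotype. Points are libraries with 95% counting intervals and lines are group means, and the 5 IMP2 immunoprecipitates sit between 177 and 294 CPM, above total RNA at 66.0 to 110 CPM and the IgG library at 36.5 CPM.

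The following results concern the knockout table, and ask whether Mospd3 mRNA and its recovery depend on genotype. On the scale of all its genes, Mospd3 had 77.8 and 88.2 CPM in KO total RNA (187 and 417 counts), against 87.3 and 114 CPM in WT total RNA (169 and 159 counts). The ranges of the genotypes overlapped. The difference, KO over WT, was log2 -0.27 ± 0.19 (SE). Total RNA of both genotypes was the reference of contrasts that the rule used, so this value is a description without a test. In this comparison 0 of 1189 genes (0%) passed the threshold of 0.05 in edgeR's quasi-likelihood test with Benjamini-Hochberg adjustment. Without adjustment 132 had a p under 0.05, while DESeq2 called 35 and limma-voom called 0. The 5 listed of 9 skeletal muscle markers summed to 422 to 1780 CPM in KO total RNA and to 1967 to 7675 CPM in WT total RNA, and their part in the Mospd3 value was not tested. In pieces of tissue, fewer cells of a type and less RNA per cell cannot be told apart.

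In the immunoprecipitates of the knockout table Mospd3 had 179 and 240 CPM in WT IP (205 and 187 counts), against 213 and 197 CPM in KO IP (538 and 389 counts). Both KO values lay between the WT values. WT IP over KO IP was log2 0.023 ± 0.19 (SE). Mospd3 was selected as high in the IP of both genotypes, so this value is a description without a test. Among all genes 0 of 1189 (0%) were called, with 211 at an unadjusted p under 0.05, 93 called by DESeq2 and 0 by limma-voom. The listed muscle markers summed to 914 to 4440 CPM in WT IP and to 194 to 763 CPM in KO IP. The 3 listed of 5 red blood cell markers summed to 2669 to 2734 CPM in WT IP and to 1618 to 2408 CPM in KO IP. The part of either list in the Mospd3 value was not tested.

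Set against the total RNA of the same genotype, Mospd3 was high in both immunoprecipitates. In WT the IP level of 210 ± 43.4 CPM (SD, n = 2) stood against 101 ± 19.2 CPM in total RNA (SD, n = 2). The WT ratio was 2.08-fold, or log2 1.05 ± 0.20 (SE), the 10th highest of 1189 genes. In KO the IP level of 205 ± 11.2 CPM (SD, n = 2) stood against 83.0 ± 7.31 CPM in total RNA (SD, n = 2). The KO ratio was 2.46-fold, or log2 1.30 ± 0.18 (SE), the 2nd highest of 1189 genes. The red blood cell markers were lower in both immunoprecipitates than in total RNA, which held 3625 to 4845 CPM of them in KO and 4300 to 5038 CPM in WT. The rule that chose Mospd3 used both contrasts, so its ranks are a description. Across all genes, 9.92% were called higher and 12.4% lower in WT IP than in WT total RNA, and 10.6% were called higher and 15.7% lower in KO IP than in KO total RNA.

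The difference between these ratios asks whether recovery over total RNA depends on genotype. For Mospd3 the WT ratio minus the KO ratio was log2 -0.24 ± 0.27 (SE), given without a test because the rule used both immunoprecipitates. Leaving out 1 library gave values from log2 -0.46 without WT IP library 22 to -0.042 without WT total RNA library 17, and -0.055 without WT IP library 21. No gene of 1189 (0%) was called for this difference, with 29 at an unadjusted p under 0.05 and 0 called by DESeq2 and by limma-voom. Fitting both tables together turned the Mospd3 value to log2 0.14 ± 0.33 (SE).

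In WT the highest ratios over total RNA belonged to Ldhd, a mitochondrial D-lactate dehydrogenase, at log2 1.76, and Aldh2, the mitochondrial aldehyde dehydrogenase, at log2 1.41. Next came Trap1, a mitochondrial chaperone, at log2 1.27, Fahd2a at log2 1.22, and Bcat2, which starts the breakdown of branched-chain amino acids, at log2 1.21. In KO only Ldhd, at log2 1.71, was above Mospd3, and Bcat2 followed it at log2 1.20.

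The IgG table asks how far the antibody recovers RNA beyond nonspecific IgG. Mospd3, selected on this contrast, had the highest value of IP over IgG there. It had 181 CPM in WT IMP2 IP library 25 (231 counts) and 18.3 CPM in IgG library 26 (75 counts), and total RNA libraries 15 and 20 had 38.7 and 36.4 CPM (55 and 96 counts). The ratio of IP to IgG was 9.91, with an exact conditional counting interval of 7.60 to 13.0, and the fitted value of log2 3.30 was the highest of 8966 genes tested. The ratio of IP to total RNA was 4.69 (3.48 to 6.41) against library 15 and 4.99 (3.91 to 6.40) against library 20. The fitted log2 2.27 ± 0.41 (SE) was also the highest of 8966 genes, just above Gmnn, an inhibitor of DNA replication licensing, at log2 2.26.

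With IgG, Mospd3 was lower than in either total RNA library. Its ratio of IgG to total RNA was 0.473 (0.330 to 0.683) against library 15 and 0.503 (0.367 to 0.688) against library 20, and the fitted value was log2 -1.03 ± 0.46 (SE), 824th from the bottom of 8966 genes. The total RNA level in this table was 37.5 ± 1.63 CPM (SD, n = 2). The IP and the IgG IP are 1 library each, so the intervals cover counting error only. The standard errors assume that both vary like the total RNA pair, with 1 residual degree of freedom. The fit took the spread as shared over the genes of the table and as known, so p-values there do not rest on each gene's own spread. Muscle markers (9 of 9 listed) summed to 6569 CPM in the IMP2 IP, 5068 CPM with IgG and 7416 to 13577 CPM in total RNA, and red blood cell markers (4 of 5 listed) to 2229, 1214 and 3205 to 4509 CPM. Their part in the members' values was not tested.

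After Mospd3, the highest IP over IgG values were log2 2.97 for Eno1b, a copy of the glycolytic enolase gene whose reads may be shared with Eno1, and log2 2.84 for Ccdc86. Of the 8966 genes, 5.47% were at least 2-fold higher and 11.3% at least 2-fold lower in the IP than with IgG. Among the 17 genes annotated within 100 kb of Mospd3, a window set after the values were seen, 7 were tested in the IgG table. Their IP over IgG values ran from log2 -1.07 for Gigyf1 to 0.78 for Gnb2. Their IP over total RNA values ran from log2 -0.21 for Lrch4 to 0.83 for Gnb2. Mospd3, selected on these contrasts, was the highest of all genes in both, so its neighbours could only lie below it.

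Vapa, one of the pair of classical tail-anchored VAP proteins, was lower in both immunoprecipitates than in total RNA. It had 51.9 CPM in the IMP2 IP (66 counts, interval 40.1 to 66.0) and 41.5 CPM with IgG (170 counts, interval 35.5 to 48.3), and total RNA libraries 15 and 20 had 133 and 101 CPM (189 and 267 counts). Both immunoprecipitates lay below both total RNA libraries. IgG over total RNA was log2 -1.49 ± 0.44 (SE), 2.81-fold lower, with an adjusted p of 0.0421 (edgeR), and the gene was among the 1.52% of 8966 called lower. This call was lost with upper-quartile scaling, with library size alone, with DESeq2 and with all transcripts of a gene summed, where the adjusted p was 0.0545, 0.0816, 0.167 and 0.0555. IMP2 IP over total RNA was log2 -1.17 ± 0.45 (SE), which did not pass (adjusted p = 0.334, edgeR), in a comparison where 0.859% of genes were called lower. The ratio of IP to IgG was 1.25, with a counting interval of 0.925 to 1.67.

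Vapb, the other VAP protein of that pair, had another pattern of values. It stood at 55.8 CPM in the IMP2 IP (71 counts, interval 43.6 to 70.4) and 95.99 CPM with IgG (393 counts, interval 86.7 to 105.96), and total RNA libraries 15 and 20 had 77.4 and 107.6 CPM (110 and 284 counts). The IMP2 IP lay below both total RNA libraries, and the IgG library lay between them. IMP2 IP over total RNA was log2 -0.74 ± 0.45 (SE, adjusted p = 0.720) and IgG over total RNA was log2 0.046 ± 0.41 (SE, adjusted p = 0.977), both in edgeR. The ratio of IP to IgG was 0.581, with a counting interval of 0.445 to 0.750.

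**Figure D2:**
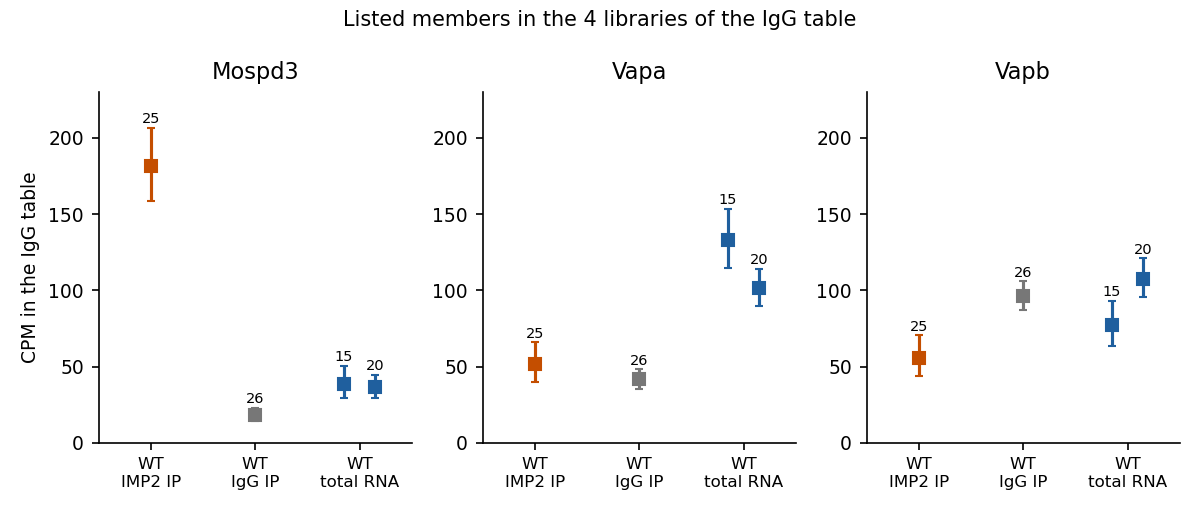
CPM in the IgG table (y axis) of Mospd3, Vapa and Vapb in the WT IMP2 immunoprecipitate, the IgG immunoprecipitate and the total RNA libraries 15 and 20 (x axis), with 95% counting intervals. In the IMP2 immunoprecipitate Mospd3 stands at 181 CPM, above its total RNA, and Vapa and Vapb stand at 51.9 and 55.8 CPM, below theirs.

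The 3 listed members thus went apart in the IMP2 IP of the IgG table. In that library Mospd3 was at log2 2.27 over total RNA, Vapa at -1.17 and Vapb at -0.74. Over IgG the values were log2 3.30 for Mospd3, 0.32 for Vapa and -0.78 for Vapb. Mospd3, selected for this, was the only one of the 3 past 2-fold. Of all genes, 5.47% were at least 2-fold higher and 11.3% at least 2-fold lower, so most lay within 2-fold, as Vapa and Vapb did. Because Mospd3 was selected on these contrasts, no test of the difference between members is given. Vapa and Vapb are not listed in the knockout table, and their recovery from KO tissue was not analysed here.

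Partners of the family were read as 28 genes whose proteins are known to bind VAP proteins through FFAT or FFAT-like motifs. The knockout table lists 3 of them, namely Osbpl9, an oxysterol-binding protein, Fam82a2, a mitochondrial tether, and Acbd4, a peroxisomal acyl-CoA binding protein, and none passed in any comparison there. In the comparisons of that table at most 10.6% of all genes were called higher and 15.7% lower. KO over WT total RNA was log2 0.39 for Acbd4, and IP over total RNA was log2 -0.39 in WT and -0.18 in KO for Osbpl9. Of the 22 tested in the IgG table, 0 were called in the IMP2 IP over total RNA. Among all 8966 genes 4 were called higher and 0.859% lower there. The median of the 22 was log2 0.033, against -0.031 over all genes. The extremes among the 22 were Vps13c at log2 1.03 and Vps13d at 0.94, and Acbd5 at -1.77 and the ceramide transporter Col4a3bp at -1.65. These 4 rest on few reads in the single IMP2 IP library, at 11, 7, 13 and 5 counts in that order.

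With IgG, 2 of the 22 FFAT partners rose over total RNA and none fell, in a comparison where 0.48% of all genes were called higher. Library 26 is the single IgG library, and its spread is assumed to be that of the total RNA pair, as shared over genes in the fit. The 2 partners, Vps13d and Vps13c, are giant bridge proteins that carry lipids between membranes. Vps13d had 115 counts with IgG (28.1 CPM), against 2 and 10 counts in total RNA (1.41 and 3.79 CPM), at log2 3.28 ± 0.64 (SE, adjusted p = 0.000366, edgeR). Vps13c had 89 counts with IgG (21.7 CPM), against 10 and 6 counts in total RNA (7.03 and 2.27 CPM), at log2 2.35 ± 0.63 (SE, adjusted p = 0.0169, edgeR). In the IgG library both genes stood above both total RNA libraries. Their size rests on few counts in total RNA: without library 15 or 20 the values were log2 2.87 and 4.27 for Vps13d and 3.23 and 1.62 for Vps13c, with no test, and DESeq2 gave neither an adjusted p. The median of the 22 was log2 0.28, against -0.0065 over all genes.

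In the IMP2 IP over IgG, none of the 22 FFAT partners was at least 2-fold higher and 4 were at least 2-fold lower. Of all genes, 5.47% were higher and 11.3% lower by that much, so none higher among 22 is near the share of all genes. The 4 lower partners were Vps13d at log2 -2.34, Plekha8, a glycolipid transfer protein, at -1.98, Osbpl7 at -1.65 and Vps13c at -1.33. They had 7, 2, 7 and 11 counts in the single IMP2 IP library, so these values lie near the floor. The median of the 22 was log2 -0.30, against -0.0056 over all genes. Another 24 genes of ER contact sites include calcium channels and tethers. Of these 20 were tested in the IgG table. In the IMP2 IP over total RNA 0 were called, where 4 of all genes were called higher and 0.859% lower. The median of the 20 was log2 0.10 there, against -0.031 over all genes. In the IgG IP over total RNA 0 were called, where 0.48% of all genes were called higher and 1.52% lower. The median of the 20 was log2 0.38 there, against -0.0065 over all genes. Among the 20, Hspa9, the mitochondrial chaperone, was highest in the IMP2 IP over total RNA at log2 0.86. Orai1, the plasma membrane calcium channel, was lowest at -0.67. In the IMP2 IP over IgG 0 of the 20 were at least 2-fold higher and 2 were lower, near the shares of all genes. Those lower were the calcium release channels Itpr2 at log2 -1.45 and Itpr3 at -1.19, on 14 and 5 counts in the IMP2 IP. In the IMP2 IP over IgG the median of the 20 was log2 -0.30, like that of the 22 FFAT partners. The knockout table lists 4 of the contact-site genes (Hspa9, Fis1, Gramd1a and Bcap31), and none passed in any comparison. At most 10.6% of all genes were called higher and 15.7% lower there.

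**Figure D3:**
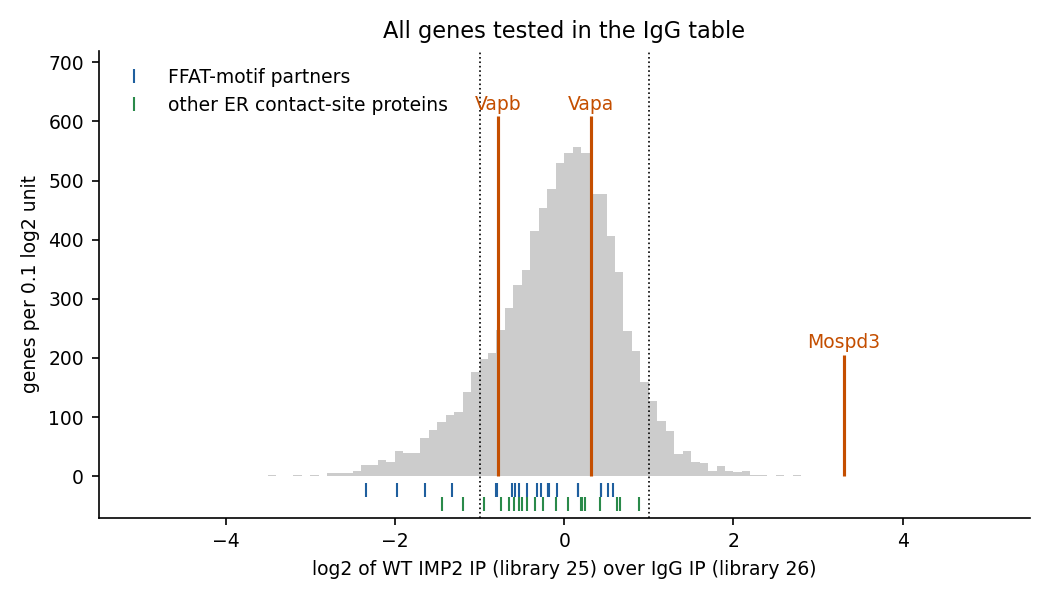
Distribution of log2 IMP2 immunoprecipitate over IgG (x axis) for the 8966 genes tested in the IgG table, as genes per bin (y axis), with dotted lines at 2-fold. Mospd3 at 3.30 is the highest of all genes, and Vapa at 0.32 and Vapb at -0.78 lie within 2-fold. The ticks below show the FFAT partners and the other contact-site genes, none of which is past 2-fold on the higher side.

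The genes whose pattern was most like that of Mospd3 were found by the Pearson correlation of log2 CPM over the 12 libraries, each table centred on its WT total RNA. Among 1127 genes compared they were Fbxw8, a ubiquitin ligase subunit (r = 0.89), Trpc4ap (r = 0.89), Vps25, an ESCRT-II subunit of endosomal sorting (r = 0.88), Pfn1, the actin-binding profilin (r = 0.87), and Gnb2, a G protein beta subunit (r = 0.86). The median r of all genes was 0.069, and 1.06% reached 0.8. With Spearman's rho in place of Pearson's r, 3 of the 5 remained among the first 5. The libraries share their scaling and their group structure, and the values are a description over 12 libraries that are not independent conditions. Gnb2 also lies near Mospd3 on chromosome 5, at 137528127 to 137533449.

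The 5 genes were chosen for this likeness, so their values are a description, and they were closer to 0 than those of Mospd3. Their IP over total RNA values were log2 0.47 to 0.71 in WT and 0.32 to 0.72 in KO of the knockout table, where Mospd3 had 1.05 and 1.30. In the IgG table they were log2 0.71 to 0.96 in the IMP2 IP over total RNA, where Mospd3 had 2.27. With IgG over total RNA they ran from log2 -0.43 for Vps25 to 0.045 for Gnb2, where Mospd3 had -1.03. Over IgG, the IMP2 IP stood at log2 0.78 for Gnb2 to 1.15 for Vps25, where Mospd3 had 3.30.

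**Figure D4:**
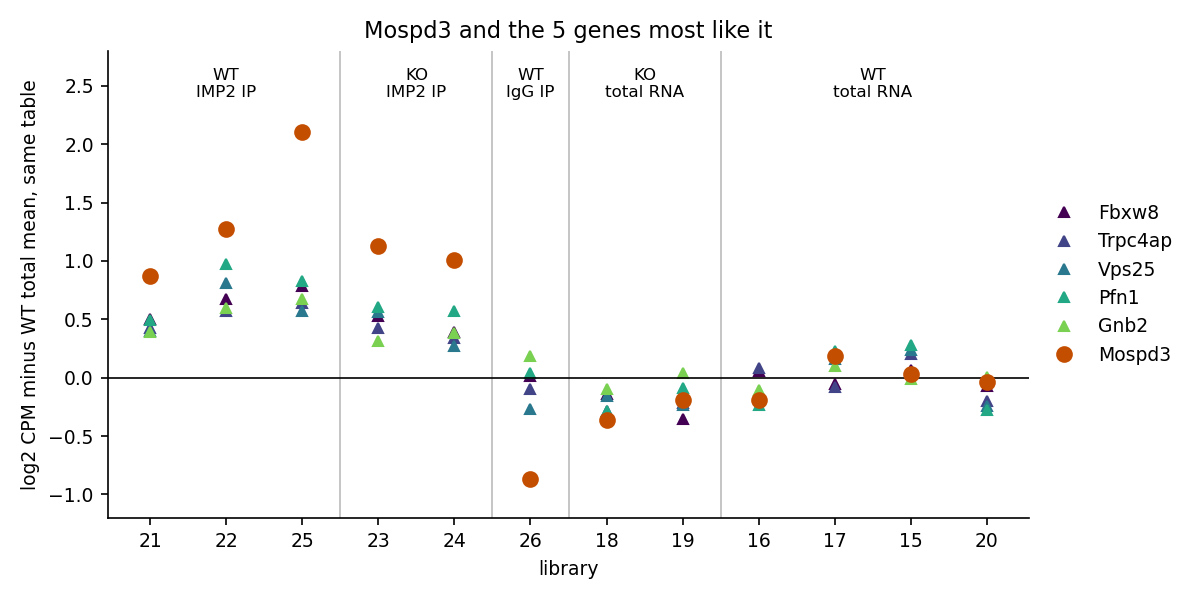
Log2 CPM of Mospd3 (circles) and the 5 genes most like it (triangles), each minus its mean over the WT total RNA libraries of the same table (y axis), in each of the 12 libraries (x axis). All 6 genes are above 0 in the IMP2 immunoprecipitates, and Mospd3 is the highest of them there and the lowest in the IgG library.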

How the data were processed

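The authors deposited whole-number read counts per RefSeq transcript, unscaled, in a pair of tables (1579 and 12840 transcripts). TopHat2 2.0.8, Cufflinks 2.1.1 and mm10 are named in the submitters' processing notes; the sources used here give neither the counting tool nor the listing filter. Symbols came from the files or, by accession, from RefSeq (GRCm38.p6). The 3 and 22 transcripts without a name, 8.65 to 29.2% and 7.39 to 15.8% of counts, were left out. Counts were TMM-scaled and tested with edgeR 4.0.16 (quasi-likelihood, R 4.3.3) over all genes of a table, 1189 and 8966 after its filter, with Benjamini-Hochberg adjustment; residual degrees of freedom were 4 and 1. DESeq2 1.42.0 and limma-voom (3.58.1) were alternatives. The method was tested on simulated counts with a single spread for all genes of a table, which cannot test whether genes share their spread. Named genes are the members, Igf2bp2, the 5 genes most like Mospd3, and extremes or passing genes of the partner lists; genes beside Mospd3 in a ranking were chosen after their values were seen. Members and lists were chosen with earlier results of these data known.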

Additional observations from a re-analysis of the deposited data

How the results depend on the processing

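Over the scalings, filters, tools, models and left-out libraries tried, Mospd3 in KO over WT total RNA stayed between log2 -0.46 and -0.068, in KO IP over KO total RNA between 1.25 and 1.46, and with IgG over total RNA between -1.16 and -0.86. Mospd3 in WT IP over KO IP, near 0, turned to log2 -0.041 with upper-quartile scaling, -0.034 with library size alone and -0.0087 with limma-voom, and leaving out a library gave -0.19 to 0.21. A single fit of both tables turned its genotype difference in recovery to log2 0.14, where leaving out a library of the knockout table gave -0.46 to -0.042, and gave 1.49 for WT IP over WT total RNA, where each table alone gave 1.05 and 2.27, and 2.65 for IP over IgG. Leaving out a library gave log2 0.84 to 1.26 for WT IP over WT total RNA of the knockout table, the lowest without WT IP library 22. For Vapa, IgG over total RNA was log2 -1.43 with upper-quartile scaling, -1.32 with library size alone, and -1.50 with DESeq2 and with all transcripts summed, none past the threshold; the cause was not tested. Without total RNA library 15 or 20 no residual degree of freedom was left, and Vapa had log2 -1.29 to -1.68 with no test. Upper-quartile scaling shifted the median gene by 0.14 (WT) and 0.17 (KO) in IP over total RNA, and library size alone by 0.17 in IgG over total RNA and -0.18 in IP over IgG. The number of genes called in WT IP over WT total RNA ranged from 32 to 214 higher and 61 to 203 lower, and in KO IP over KO total RNA from 47 to 273 higher and 87 to 238 lower. In fits of the IgG table alone, 2 to 5 genes were called higher and 20 to 87 lower in the IMP2 IP than in total RNA, and 41 to 157 lower with IgG. Genes called higher with IgG, 43 (0.48%) as reported, numbered 3 with DESeq2 and 44 to 59 under the other alternatives, except 1.14% of genes with library size alone. The fit of both tables over 1189 genes called 167 higher and 172 lower in the IMP2 IP, and 139 higher and 142 lower with IgG. No paired analysis was possible because the groups share no replicate numbers. The single IMP2 IP library of the IgG table held 66 counts of Vapa and 71 of Vapb.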
